A study of Mus musculus with 2 samples.

Results

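The basal keratinocytes of mouse back skin described here were chosen from counts of keratin and marker RNAs in single cells. Barcodes of the back skin library were taken as cells when they held 500 or more genes, 1000 or more unique molecular identifiers (UMIs, each standing for 1 captured RNA molecule) and no more than 10% mitochondrial UMIs. A cell was a member when *Krt5* and *Krt14* together made up at least 50 of every 10000 of its UMIs and *Krt1* and *Krt10* together fewer than 100. It could also hold UMIs of at most 1 gene from each of 4 exclusion sets. These were 7 upper follicle genes (*Sostdc1*, *Vsnl1*, *Gata6*, *Lrig1*, *Krt79*, *Aldh3a1*, *Sox7*), 5 genes here called the *Krt24* set (*Wfdc3*, *Grem1*, *Krt24*, *Angptl7*, *Col8a2*), 6 hair matrix genes (*Lef1*, *Hoxc13*, *Msx1*, *Msx2*, *Dlx3*, *Shh*) and 4 cycling genes (*Mki67*, *Top2a*, *Aurkb*, *Plk1*). The rule found 2448 of 8899 skin cells, or 27.5% (26.6 to 28.4%, exact Clopper-Pearson interval).

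The study placed back skin beside the preputial gland (PG), a large paired sebaceous gland of the mouse, to compare their sebocytes. Skin biopsies and PG samples came from 3 male wild type C57BL/6 mice aged 52 weeks and were pooled by tissue. Both tissues were digested with the same dissociation kit, and 1 droplet library was made per tissue. The skin library held 37675226 UMIs and the PG library 26288071 UMIs over 32285 listed genes. There are no replicates, so no test and no p-value is given. The 95% intervals beside levels, shares and ratios speak of counting error alone. They hold nothing of the differences among mice, and those of levels and ratios nothing of the spread of counts among cells. Tissue and library cannot be told apart when skin is set beside PG. The files list barcodes against different barcode lists (6794880 and 737280 entries) although 1 kit is named for both tissues, and whether the chemistry differed is not known. The lists have 77142 barcodes in common, and 0 barcodes were kept as cells in both libraries.

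The epidermis is renewed from its innermost layer. Basal keratinocytes hold on to the basement membrane through hemidesmosomes, in which the integrin α6β4 and collagen XVII bind laminin-332, and through β1 integrins linked to actin. Basal cells make the keratins K5 and K14, and as a cell leaves the membrane it switches to K1 and K10, receives Notch signals and turns on genes of the cornified barrier. The hair follicle is lined by a continuous sheet of cells that also make K5 and K14, so these keratins alone do not separate the epidermis between follicles from the follicle.

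The members held 6874514 UMIs, with a median of 2516.5 UMIs and 1012.5 genes per cell. *Krt5* and *Krt14*, used by the rule, had medians of 43.4 and 75.9 per 10000 UMIs. *Krt15*, a keratin of basal cells of epidermis and follicle that the rule did not use, varied more between members, from 6.45 per 10000 at the 10th percentile over a median of 73.4 to 173.1 at the 90th. After every cell was thinned to 1000 UMIs, 89.4% of members held *Krt15* UMIs, against 9.95% of fibroblasts of the same library, which should lack it (without thinning 92.7% and 14.6%, at median depths of 2516.5 and 1863 UMIs). *Col7a1*, the anchoring fibril collagen, was found in 6.01% of the thinned members and 0.195% of the thinned fibroblasts. *Dlk2*, a membrane protein related to Notch ligands, was found in 3.55% and 0.0976% (without thinning 14.2% and 0.39% for *Col7a1*, 8.17% and 0.0976% for *Dlk2*). The 3 markers that the rule did not use were thus found in a larger share of members than of fibroblasts.

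**Figure D1:**
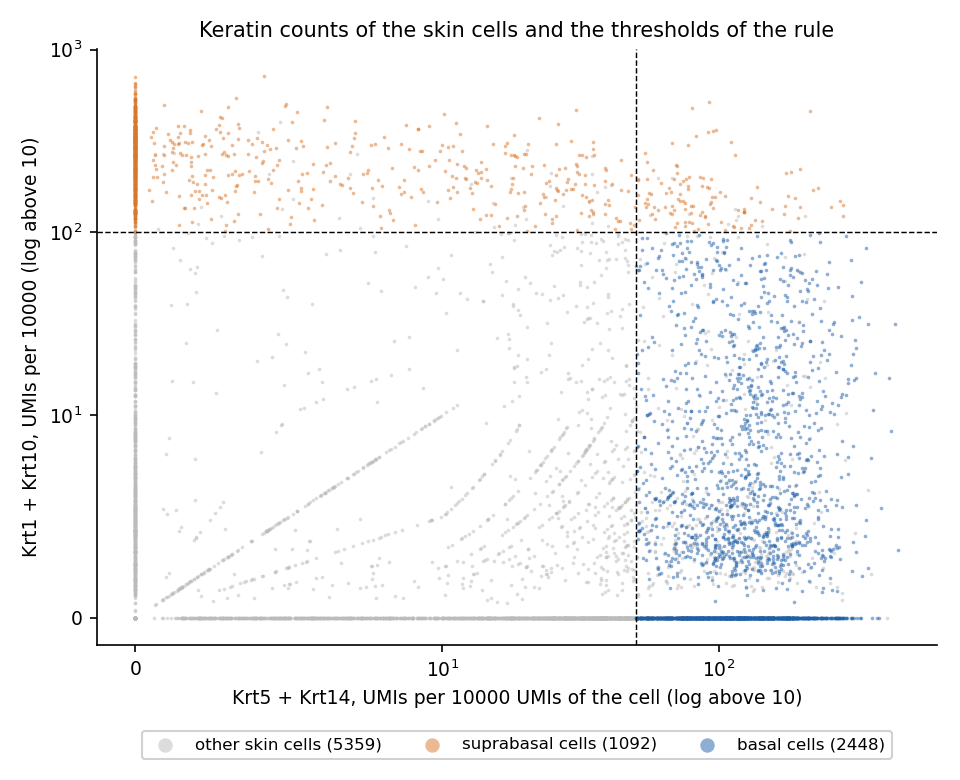
Each point is 1 skin cell, with *Krt5*+*Krt14* on the horizontal and *Krt1*+*Krt10* on the vertical axis, both in UMIs per 10000 UMIs of the cell (linear below 10, logarithmic above) and the thresholds as dashed lines. Most of the 2448 basal cells (blue) lie near 0 on the vertical axis, while 117 of the 1092 suprabasal cells (orange) lie to the right of the vertical threshold.

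*Krt5*+*Krt14* let 3280 skin cells pass, of which 127 were over the limit on *Krt1*+*Krt10*. The exclusion sets left out another 705, most of them by the upper follicle set (428 cells), then the cycling set (197), the *Krt24* set (106) and the matrix set (29), with 53 cells failing more than 1 set. Among the members, 1628 (66.5%) held no UMI of any set. The thresholds cut through a continuous range of cells. The lowest member had 50.2 per 10000 of *Krt5*+*Krt14* and the nearest cell outside 49.9, with 155 members from 50 to 60 and 162 cells from 40 to 50. The highest member had 98.9 per 10000 of *Krt1*+*Krt10* and the nearest cell outside 101.8.

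The word interfollicular in the label did not hold for every member. Clustered without the genes of the rule, the members fell into 9 subclusters, of which 4, together 333 cells or 13.6%, were led by genes of follicle, fibroblast or immune cells. Subcluster 5 (162 cells) was led by *Gjb2*, *Pthlh* and *Fabp5* and held 10926 CPM (counts of a gene per 1000000 UMIs of a group of cells) of *Krt17*, a keratin of the outer root sheath, against 518 CPM in the other members. Subcluster 6 (94 cells) held the bulge genes *Cd34* at 395 against 16.2 CPM, *Lhx2* at 390 against 12 CPM and *Postn* at 1276 against 41.9 CPM. Subcluster 8 (48 cells) held the fibroblast genes *Col1a1* at 4326 against 8.49 CPM and *Dcn* at 4747 against 14.6 CPM. Subcluster 9 (29 cells) held *Cd74*, of antigen presentation, at 2725 against 8.09 CPM and *Cd207*, of Langerhans cells, at 248 against 0.441 CPM, with a median of 130.1 per 10000 of *Krt5*+*Krt14*. The rule therefore gathered basal cells of the epidermis together with some of the follicle and some barcodes with RNA of fibroblasts or immune cells. Subcluster 4 (226 cells) was led by genes of the upper follicle, *Cst6*, *Defb6* and *Sostdc1*, together with the suprabasal genes *Krtdap*, *Mt4* and *Krt77*, and with it the cells set aside come to 559 (22.8%). Leaving it out lowers these genes by construction. Several main results that change by over 1.5 times without the 333 cells are given both ways, and several that rest on subcluster 4 without the 559.

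Markers of other cell types were present at levels that differed by type. All 9 fibroblast genes had UMIs, summed to 601 CPM with *Sparc* the most abundant at 153 CPM, or 35.4% of their level in barcodes with at most 100 UMIs, which hold free RNA of the suspension. Leaving out the 333 cells gave a sum of 146 CPM (8.59% of free RNA). The immune genes summed to 89.8 CPM (17.0% of free RNA, led by *Cd74* at 38.4 CPM, and 23.2 CPM without the 333 cells), the muscle genes to 211 CPM (3.50%) and the melanocyte genes to 67.5 CPM (5.59%). *Elovl3* of sebocytes, *Krt20* and *Atoh1* of Merkel cells and *Krt72* of the inner root sheath were at 0 UMIs. Their lists summed to 134 CPM for sebocytes (36.2% of free RNA) and 2.33 CPM for Merkel cells (27.6%). Inner root sheath and hair shaft genes summed to 435 CPM (21.25%), led by *Gata3* at 298 CPM. Free RNA was estimated at 30.8% of the members' UMIs from fibroblast, immune and endothelial genes, and at 3.50% from muscle genes. The 30.8% was taken over all members, with the 333 cells, some of which held RNA of fibroblasts or immune cells. As given above, most of the fibroblast and immune UMIs went with these cells. The 30.8% is therefore not a measure of free RNA in the other members, for whom the estimate was not repeated. The outer root sheath and bulge genes reached 107% of their free RNA level at 1530 CPM, led by *Krt17* at 1066 CPM, and 341 members (13.9%) held UMIs of at least 3 of these genes. They summed to 706 CPM (49.4%) without the 333 cells. The infundibulum and upper follicle genes outside the rule summed to 1836 CPM (47.1%), also led by *Krt17*, with at least 3 of them in 294 members (12.0%), and to 1018 CPM (26.1%) without the 559 cells.

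What separates a basal cell from the layer above it was read from the 1092 suprabasal cells of the same library, which had at least 100 per 10000 of *Krt1*+*Krt10* and passed the same exclusion sets (median 3152 UMIs). Since keratins drew this line, the ratios describe the divide and do not test it. Genes were compared at 50 CPM or more in either class, and a gene was counted when its level differed at least 2-fold, that is, by 1 or more on the log2 scale. Of 2835 genes, 262 (9.24%) were higher in basal cells by this measure and 393 (13.9%) were lower, with a median log2 ratio of 0.03. A gene near the 50 CPM limit enters only through the class where it is higher, so counts are also given for most lists over their genes with at least 20 UMIs. Of all 11236 genes with at least 20 UMIs, 17.3% were at least 2-fold higher and 8.73% lower (median 0.16).

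Genes of attachment to the basement membrane were higher in basal cells almost without exception. All 9 hemidesmosome and basement membrane genes past the filter were at least 2-fold higher in basal than in suprabasal cells, as were 17 of the 18 with at least 20 UMIs, with a median log2 ratio of 2.07 (1.85 to 3.29 over the alternatives tried). *Col17a1*, the collagen of the hemidesmosome, stood at 1647 CPM in basal and 398 CPM in suprabasal cells, a log2 ratio of 2.05 (1.97 to 2.12). *Itga6* stood at 402 and 76.7 CPM (2.39, 2.23 to 2.56) and its partner *Itgb4* at 118 and 17.4 CPM (2.75). Laminin genes differed unequally, with *Lamb3* at 170 and 11.3 CPM (3.92, 3.51 to 4.36) and *Lama3* at 57.6 and 13.8 CPM (2.06). The cytoplasmic linkers to keratin differed least among the abundant members, with *Dst* at 787 and 250 CPM (1.66) and *Plec* at 419 and 184 CPM (1.19). *Nid1*, a basement membrane linker, was the 1 gene of the 18 under 2-fold, at 6.11 and 4.36 CPM, and lay at 0.658 CPM (-2.73) without the 333 cells.

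Focal adhesion genes, which tie integrins to actin, had 5 of 9 members past the filter at least 2-fold higher and none lower, with a median of 1.57 over 13 genes. *Itgb1*, the common β chain, stood at 248 CPM in basal and 24.3 CPM in suprabasal cells (3.35). Its collagen-binding partner *Itga2* had the highest ratio among the genes compared that had UMIs in at least 10% of cells of either class, at 56.2 and 2.53 CPM (4.47, 3.62 to 5.49). Another partner, *Itga3*, stood at 47.9 and 1.38 CPM (5.12) and lay just under the filter. Other genes at the top were *Agrn*, a heparan sulfate proteoglycan, at 109 and 5.97 CPM (4.19), *Slco2a1*, a prostaglandin transporter, at 134 and 8.03 CPM (4.06), and *Fcgbp* at 563 and 38.8 CPM (3.86). The rest of the 10 highest by the same limit were *Jag2*, *Lamb3*, *Ctnnal1*, *Cdh13*, the collagen *Col16a1* and the small GTPase *Rac3* (3.69 to 3.98).

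**Figure D2:**
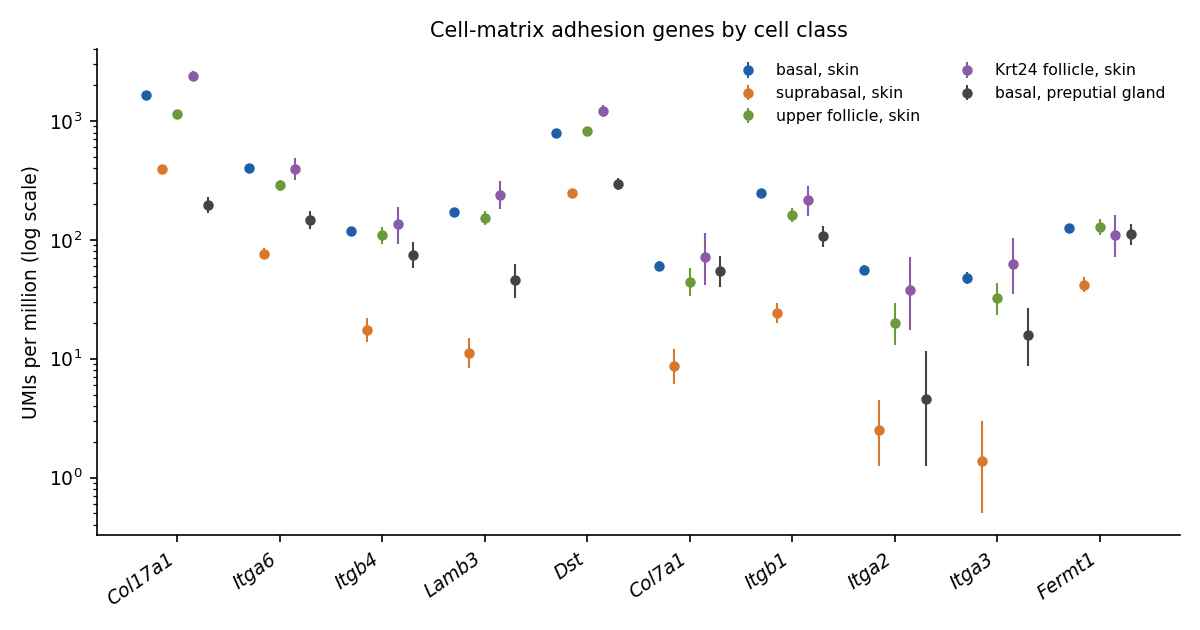
Levels of 10 adhesion genes in CPM of each cell class on a logarithmic axis, with bars for the exact 95% Poisson intervals of counting. Basal cells of skin (blue) lie above suprabasal cells (orange) for each gene. For *Col17a1* they lie near the upper follicle and *Krt24* follicle cells (log2 ratios 0.53 and -0.55), and at 1647 against 196 CPM in basal cells of PG (black). For *Itga2* they lie above the upper follicle cells (1.49).

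Of 12 transcription factors listed for basal cells, 2 were at least 2-fold higher and 1 lower, beside 9.24% and 13.9% of all genes, and of 16 with at least 20 UMIs 4 were higher and 1 lower. *Trp63*, the master regulator of stratified epithelium, stood at 249 CPM in basal and 163 CPM in suprabasal cells, a log2 ratio of 0.62 (0.49 to 0.75), and *Klf5* had 0.09. *Nfib* was higher at 300 and 116 CPM (1.37), and *Id1*, an inhibitor of bHLH factors, was lower at 101 and 213 CPM (-1.08). Of 8 factors of differentiation past the filter, none was higher and 5 were lower, as were 8 of 11 with at least 20 UMIs. *Zfp750* stood at 18.9 and 147 CPM (-2.96), *Grhl1* at 25 and 165 CPM (-2.72), *Cebpa* at 37.5 and 180 CPM (-2.26) and, under the filter, *Grhl3* at 4.95 and 46.1 CPM (-3.22). *Klf4*, a barrier regulator, stayed under 2-fold at 408 and 723 CPM (-0.82). Most factors listed for differentiation were thus lower in basal cells, while most of those listed as basal stayed under 2-fold.

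The genes of the suprabasal layers and the barrier gave the reverse of the adhesion genes. Of 16 past the filter, 15 were at least 2-fold lower in basal cells, as were 19 of the 21 with at least 20 UMIs, with 1 higher and a median of -4.37. The median was -5.02 without the 333 cells. *Krtdap*, a keratinocyte differentiation peptide, stood at 277 CPM against 12831 CPM (-5.53, and -6.18 without the 559 cells). *Sbsn* stood at 500 against 10234 CPM (-4.35, and -5.02 without the 333) and *Calm4*, a calcium-binding protein, at 317 against 5479 CPM (-4.11). Over all alternatives *Krtdap* ran down to -14.64 and *Sbsn* to -14.30. *Lgals7* was the exception, abundant in both layers at 11929 and 19923 CPM (-0.74). The keratin *Krt77* stood at 109 against 7969 CPM (-6.20, and at most -13.94 on the same basis). Free RNA of the skin library held 1763 CPM of *Krtdap* and 1457 CPM of *Krt77*. Its part in their basal levels was not tested. The lowest of all with UMIs in at least 10% of cells of either class were *Dkkl1* (-8.19), *Serpinb12* (-6.92) and the keratin *Krt78* (-6.68), and *Dnase1l3*, *Sdr16c6*, *Orm1* and *Hal*, a histidine-degrading enzyme, were also among the 10 lowest (-6.11 to -5.88). All 7 *Skint* genes past the filter, which encode epithelial proteins related to butyrophilins, were lower, with -6.55 for *Skint5* (-7.19 without the 333 cells) and -6.23 for *Skint9* (-6.90 without the 559). With at least 20 UMIs 8 of 10 were lower and none higher, and the 7 reach the filter through the suprabasal class.

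Genes of cell-cell junctions differed in both directions. Of 12 desmosome and adherens junction genes past the filter, 2 were at least 2-fold higher in basal cells and 5 lower. Higher were the desmogleins *Dsg3*, at 191 and 31.2 CPM (2.62), and *Dsg2*, at 81.3 and 6.66 CPM (3.61). Another desmoglein, *Dsg1a*, listed with the barrier genes, was lower (-2.35). Lower were *Dsp*, the desmosomal plaque protein, at 982 and 2467 CPM (-1.33), *Dsc3* at 401 and 905 CPM (-1.18), *Jup* (-1.39), *Perp* (-1.38) and *Pkp1* (-1.25). *Cdh1*, E-cadherin, differed by -0.34, while P-cadherin, *Cdh3*, stood at 27.6 and 5.05 CPM (2.45).

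**Figure D3:**
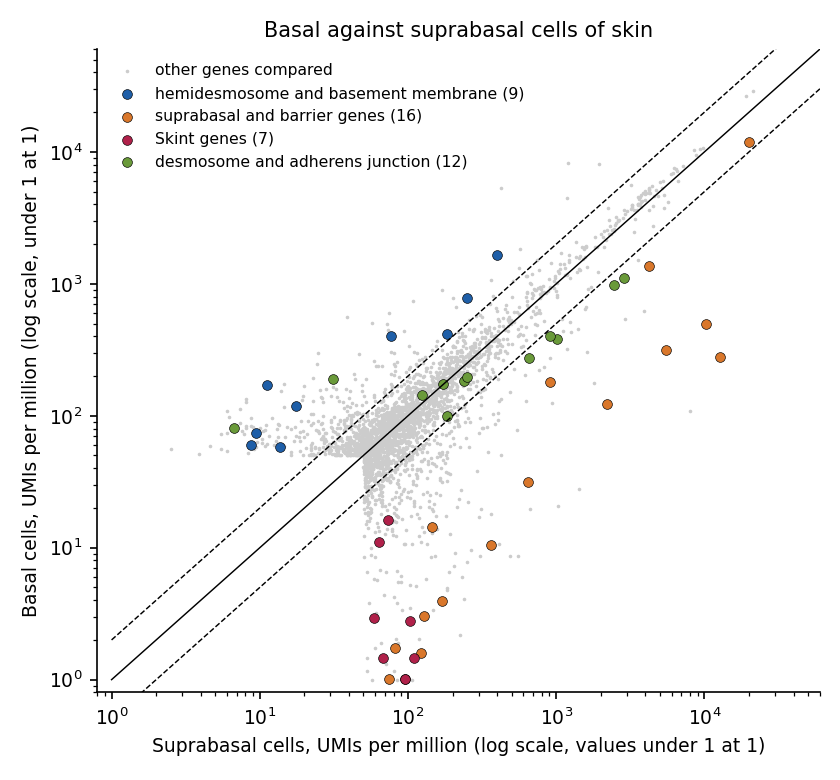
Each point is 1 gene compared, with its level in suprabasal cells on the horizontal and in basal cells on the vertical axis, in CPM on logarithmic axes (values under 1 drawn at 1). The solid line marks equal levels and the dashed lines a 2-fold difference. The 9 hemidesmosome and basement membrane genes (blue) lie above the upper dashed line and the 7 *Skint* genes (red) below the lower one.

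In the Notch pathway genes differed in both directions, with 1 of 6 past the filter at least 2-fold higher in basal cells and 2 lower. *Jag2*, a Notch ligand, stood at 127 CPM in basal and 8.03 CPM in suprabasal cells (3.98, 3.50 to 4.51), the ligand *Dll1* at 31 and 2.75 CPM (3.49) and the ligand *Jag1* at 52.2 and 37.6 CPM (0.47). *Notch3* was lower, at 10.3 and 44.3 CPM (-2.10, and -3.02 without the 559 cells), as was *Notch2* (-1.51), and *Notch1* stood at 108 and 84.2 CPM (0.36). Of the targets of the pathway, *Hes1* stood at 152 and 306 CPM and *Nrarp* at 20.5 and 120 CPM (-2.54). Over the whole list, 5 of 12 genes with at least 20 UMIs were at least 2-fold higher and 4 lower.

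Genes of Wnt signalling were at least 2-fold higher for 4 of 6 past the filter and for 12 of 21 with at least 20 UMIs, and lower for none, with a median of 1.42. The ligands *Wnt4* and *Wnt10a* stood at 226 and 77.7 CPM, against 101 and 10.8 CPM in suprabasal cells (1.16 and 2.85). *Wls*, which carries Wnt proteins to the cell surface, stood at 207 and 77 CPM (1.42). *Lgr6*, a receptor of R-spondins, stood at 45.8 and 2.75 CPM (4.06). *Wnt3* (0.47), *Wnt7b* (-0.17) and the feedback inhibitor *Axin2* (0.49) were under 2-fold.

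Among genes of the EGF and FGF families, 2 of 9 were higher and 2 lower, and of 17 with at least 20 UMIs 6 were higher and 4 lower. Receptor *Fgfr2* stood at 141 and 30.3 CPM (2.21) and the EGF receptor ligand *Epgn* at 103 and 22.3 CPM (2.21). The ligands *Areg* (-1.76) and *Ereg* (-3.88) were lower in basal cells, and *Hbegf* differed by 0.11. Of the TGF-β and BMP list, 9 of 14 genes with at least 20 UMIs were at least 2-fold higher and none lower (median 1.50), among them *Fst*, the activin antagonist follistatin, at 80.7 and 10.1 CPM (3.00), *Tgfb1* (2.84) and *Bmp4* (1.72).

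Of 11 genes listed for epidermal progenitors, 8 were higher and none lower, and of 14 with at least 20 UMIs 9 were higher. *Thbs1*, the matrix protein thrombospondin 1, stood at 299 and 24.6 CPM (3.60), *Ifitm3* at 601 and 74.8 CPM (3.01) and *Mt2*, a metallothionein, at 829 and 248 CPM (1.74). *Ptn*, the growth factor pleiotrophin, stood at 176 and 14.5 CPM (3.60) and *Gja1*, connexin 43, at 442 and 93.7 CPM (2.24). These last genes were also abundant in subclusters 6 and 5. Without the 333 cells their log2 ratios were 2.98 and 1.38, and the median of the outer root sheath and bulge genes went from 2.05 to 0.97. *Slc1a3*, known as a marker of dividing basal cells, was rare in both layers at 6.4 and 6.89 CPM, and *Dlx1* had 1 UMI in the basal cells.

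Chemokine and cytokine genes were higher for 4 of 6 past the filter, and of 17 with at least 20 UMIs 8 were higher and 1 lower. *Ccl27a*, a skin chemokine that draws T cells, stood at 905 CPM in basal and 170 CPM in suprabasal cells (2.41), *Cxcl14* at 499 and 72.1 CPM (2.79) and *Il33*, an alarmin, at 120 and 48.7 CPM (1.30). *Il1r2*, the decoy receptor of interleukin 1, stood at 95.6 and 8.72 CPM (3.45). Of 5 genes of G1 and S phase past the filter, 2 were higher and 1 lower (10 and 2 of 15 with at least 20 UMIs). *Ccnd1* and *Ccnd2*, cyclins of G1, stood at 192 and 504 CPM against 22.7 and 57.2 CPM (3.08 and 3.14), while the cell cycle inhibitor *Cdkn1a* stood at 221 against 768 CPM (-1.80). No G2/M gene passed the filter. The rule keeps out cells with several cycling genes, and its part in this was not tested. All 12 G2/M genes with at least 20 UMIs were at least 2-fold higher (79.3 against 11.5 CPM summed). Subcluster 7, led mostly by genes of cell division, held 54.9% of the members' UMIs of these genes, at 1571 CPM in its 52 cells against 36.8 CPM in the other members. Early response genes, which tissue digestion is known to induce, differed little between the layers, with 1 of 16 counted and a median of 0.38 (*Fos* at 1280 and 768 CPM, *Jun* at 2091 and 1353 CPM). Fibroblast genes summed to 601 against 313 CPM, with 1 of 5 counted. Without the 333 cells the sum was 146 CPM and 262 and 393 became 261 and 397 genes higher and lower.

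Members also differed among themselves with their level of *Krt1*+*Krt10*. These keratins drew the ranges, so the ratios describe the ranges and do not test a course of differentiation. The part of free RNA and of doublets in them was not tested. From 0 to under 10 per 10000 of *Krt1*+*Krt10* there were 1994 members, then 218 up to 25, 113 up to 50 and 123 up to 100, with median depths of 2491, 2321, 2772 and 3121 UMIs. Between the lowest and the highest of these ranges *Krt15* went from 8347 to 6712 CPM (log2 ratio -0.31) and *Col17a1* from 1664 to 1348 CPM (-0.30). *Jag2* went from 134 to 53.4 CPM (-1.32, -1.96 to -0.75), *Itga2* from 62.6 to 23.5 CPM (-1.41) and *Cxcl14* from 563 to 190 CPM (-1.57). The Notch ligand, the collagen-binding integrin and the chemokine thus differed more over this interval than the collagen of the hemidesmosome. The hemidesmosome and basement membrane list had a median of -0.70, with 5 of 18 genes at least 2-fold lower, beside 10.3% lower and 4.08% higher (median -0.05) among 10145 genes with at least 20 UMIs.

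In the other direction *Krtdap* went from 77.9 to 2248 CPM (4.85) and *Mt4* from 45.5 to 769 CPM (4.08), and 11 of 15 suprabasal and barrier genes were at least 2-fold higher in the highest range. The factors of differentiation were higher there for 6 of 11 genes, with a median of 1.10. Of all genes with at least 20 UMIs, 4.08% were at least 2-fold higher in that range. *Zfp750* went from 11.6 to 74.8 CPM (2.69), *Grhl3* from 2.76 to 15 CPM (2.44) and *Notch3* from 7.37 to 27.8 CPM (1.92). The ligand *Dll1* went from 34.1 to 12.8 CPM. In subcluster 4, which gave 48 of the 123 cells of the highest range, *Notch3* stood at 26.8 CPM and *Jag2* at 131 CPM, so *Jag2* was not low in every group of members with more *Notch3*. None of the cells of subclusters 5 and 6 was in the highest range, and the fibroblast genes summed to 566 CPM in the lowest range and 1746 CPM in the highest. Without the 333 cells these sums were 163 and 92.5 CPM, the log2 ratio of *Jag2* was -1.43, that of *Itga2* -1.51, that of *Krtdap* 4.89 and that of *Notch3* 3.07. *Krt17* went from -2.52 to -1.17, *Gja1* from -1.27 to -0.31, *Zfp750* from 2.69 to 3.85 and *Sbsn* from 1.51 to 2.71 when these cells were left out.

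**Figure D4:**
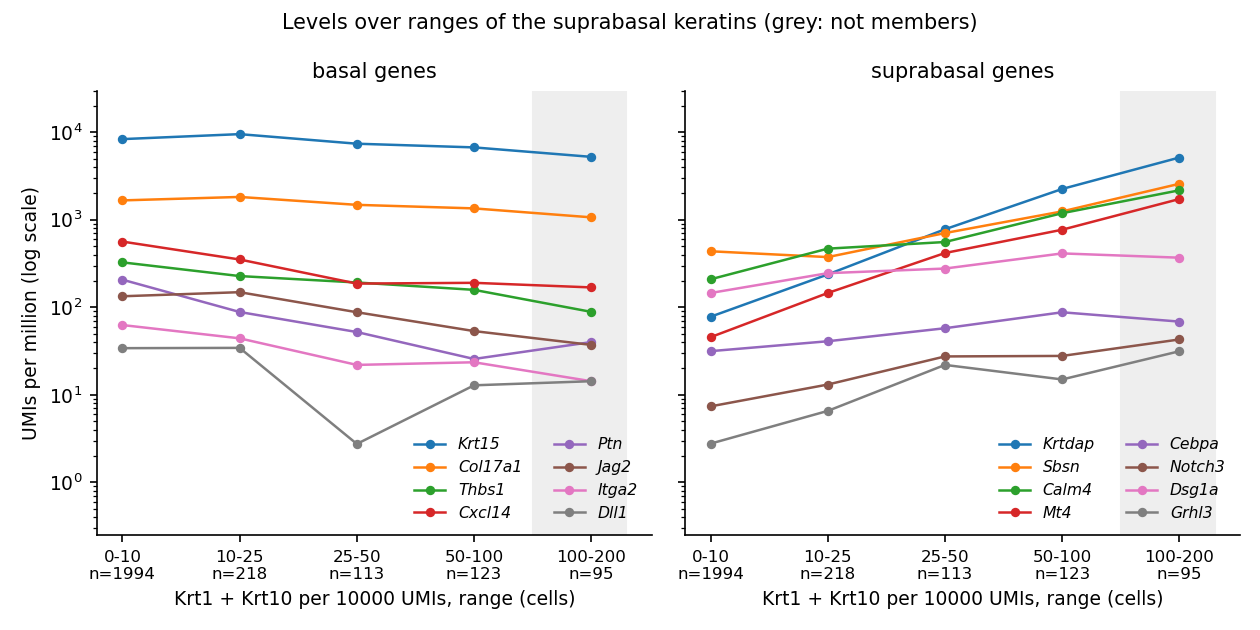
Levels of 16 genes in CPM (logarithmic axis) over 4 ranges of *Krt1*+*Krt10* in the basal cells and, shaded in grey, 1 range above the limit of the rule (95 cells). *Krt15* and *Col17a1* stay within a narrow band, *Jag2*, *Itga2*, *Cxcl14* and *Ptn* decline from left to right, and *Krtdap* climbs from 77.9 to 2248 CPM within the members.

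Beyond the 4 subclusters named above, 5 others held 2115 cells. Subcluster 1 was the most numerous, with 1094 cells (44.7%), and was led by *Fbxo32*, *Rspo3*, *Slitrk6* and the Wnt receptor *Fzd10*. It held 188 CPM of *Jag2* against 89.7 CPM in the other members, 87.9 against 42.9 CPM of *Col7a1*, and 10483 CPM of *Krt15*. In subcluster 2 (409 cells) early response and stress genes led, with *Fos* at 3891 against 581 CPM, *Atf3* at 3971 against 382 CPM and the heat shock gene *Hspb1* at 10877 against 1856 CPM. Subcluster 3 (334 cells) was marked by *Ifi202b*, an interferon-induced gene, at 2818 against 35.3 CPM. It also held *Serpinb2* at 7618 against 405 CPM, *Thbs1* at 1062 against 131 CPM, and *Krt16*, a keratin of stressed and wounded epidermis, at 843 against 65.6 CPM. Several genes named above were thus concentrated in a minority of the cells. Without subcluster 3 the log2 ratio against suprabasal cells was 2.41 for *Thbs1*, 0.81 for *Il33*, 3.61 for *Itga2*, 2.34 for *Fst* and -0.90 for *Id1*. Without subclusters 2 and 3, which left 1705 cells, it was 1.18 for *Thbs1*, 0.25 for *Epgn*, 0.67 for *Il33*, 0.93 for *Mt2*, -3.80 for *Areg* and -3.16 for *Cdkn1a*. The median of the early response genes was then -0.78, with *Fos* and *Jun* below their suprabasal levels.

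Subcluster 4 (226 cells) was led by *Krtdap* at 1414 against 169 CPM and by *Cst6*, *Defb6* and *Sostdc1*, which are genes of the upper follicle, and 48 of its cells (21.2%) lay from 50 to 100 per 10000 of *Krt1*+*Krt10*. Subcluster 7 (52 cells) had *Cstdc5* first, at 1476 against 56.4 CPM, followed mostly by genes of cell division. Among these were *Birc5*, *Cenpf* and *Mki67*, the last a gene of the rule. *Krt15* reached its highest level in subcluster 6, at 14218 CPM, and its lowest in subcluster 5, at 1188 CPM, where *Col17a1* stood at 263 CPM. The subclusters were drawn from these same counts, so their leading genes are a description.

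**Figure D5:**
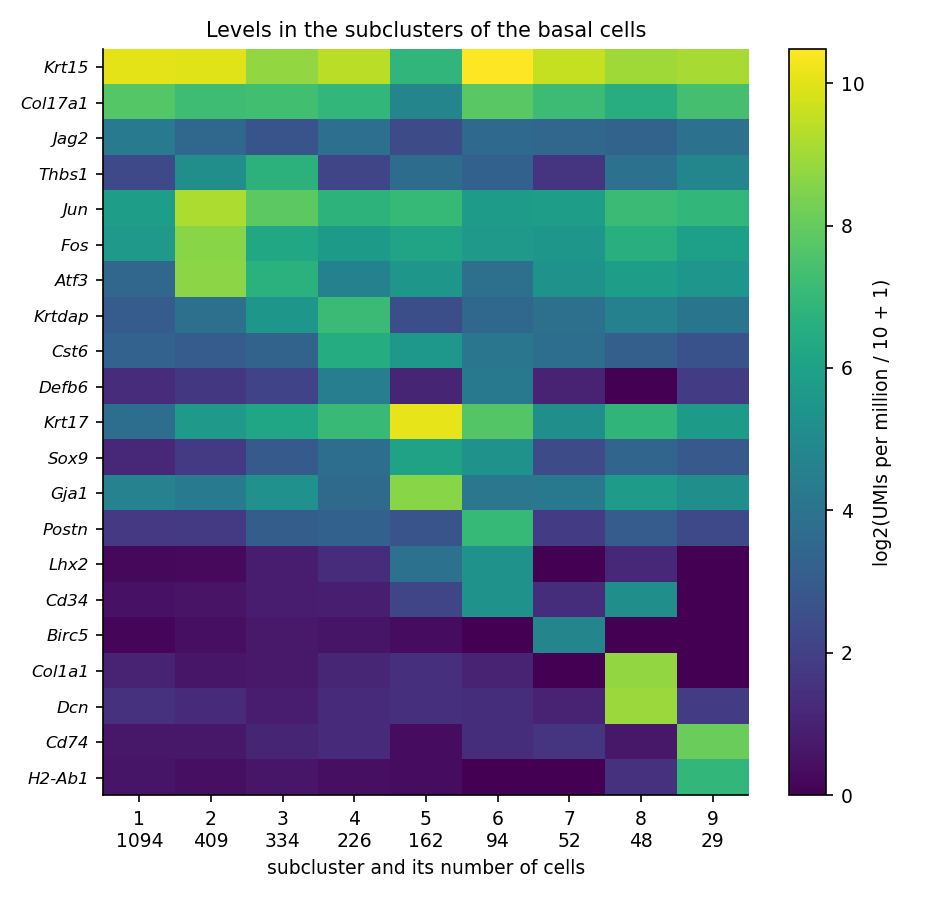
Levels of 21 genes in the 9 subclusters of the basal cells, with the number of cells under each column and colour for log2(CPM / 10 + 1). *Jun*, *Fos* and *Atf3* are brightest in subcluster 2, *Krt17* in subcluster 5, *Postn* and *Lhx2* in subcluster 6, *Col1a1* and *Dcn* in subcluster 8 and *Cd74* in subcluster 9.

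The follicle opens into the epidermis, and 384 skin cells passed the keratin thresholds but held UMIs of at least 2 upper follicle genes (median 2753.5 UMIs). These were close to the basal cells. Of 2600 genes, 49 (1.88%) were at least 2-fold higher in basal cells and 77 (2.96%) lower. None of 10 hemidesmosome and basement membrane genes was counted (median 0.27), and with at least 20 UMIs none of 18 was higher and 1 lower, beside 5.02% and 5.08% of all such genes. Examples were *Col17a1* at 1647 and 1143 CPM (0.53) and *Krt15* at 8290 and 5750 CPM (0.53).

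Higher in the basal cells than in the upper follicle were *Igfbp3*, an IGF-binding protein, at 673 and 151 CPM (2.16), *Serpinb2* at 1704 and 461 CPM (1.89), *Il1r2* at 95.6 and 26.9 CPM (1.83), *Epgn* at 103 and 33.1 CPM (1.64) and *Il33* at 120 and 45.4 CPM (1.40). Some of these differences rest on a minority of the members. Without subcluster 3 *Serpinb2* stood at 405 CPM (-0.19), *Il33* at 85.3 CPM (0.91) and *Igfbp3* at 461 CPM (1.61). Without subclusters 2 and 3 *Epgn* stood at 26.5 CPM (-0.32). With the rule applied to thinned cells *Il33* also fell under 2-fold, at 0.75. *Serpinb7*, *Slc4a8* and *Ndufa4l2* completed the 10 highest (1.57 to 1.58), with *Ifi202b* and *Krt16*. The direction of *Ifi202b* turned without subcluster 3 (-1.97) and that of *Krt16* without subclusters 2 and 3 (-0.46). The first by ratio among genes with UMIs in at least 10% of cells of either class, the red blood cell gene *Hbb-bs* at 781 and 72.3 CPM, came from few barcodes, since 10 members held 4689 of its 5372 UMIs, and its level in free RNA was 4703 CPM. Fibroblast genes were also higher for 4 of 5, at 601 against 268 CPM summed, but at 146 CPM without the 333 cells. Without these cells 56 genes were higher and 104 lower.

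Upper follicle genes drew the line between these classes, so the ratios describe the divide and do not test it. Lower in the basal cells were 6 of 8 infundibulum genes outside the rule. With at least 20 UMIs 7 of 10 were lower, beside 5.08% of all such genes. Some, such as the first named here, reach the 50 CPM limit only in the upper follicle class. *Defb6*, a β-defensin, stood at 41 against 1098 CPM (-4.74) and *Cst6*, a protease inhibitor of the cornified layer, at 179 against 3488 CPM (-4.29). Without the 559 cells these ratios were -5.70 and -5.33, and with the rule applied to thinned cells -3.41 and -2.72. Over all alternatives they ran down to -11.03 and -12.64. Free RNA of the skin library held 389 CPM of *Defb6* and 2017 CPM of *Cst6*, and its part in the basal levels was not tested. The lipoxygenase *Alox12e* (-4.21), the β-defensin *Defb1* (-2.91), *Foxc1*, *Pdlim4*, *Gas7* and *Hpgd* were among the 10 lowest (-2.52 to -2.27 for the last 4). *Alox12e* was at -5.27 without the 559 cells and ran from -8.31 to -2.26 over all alternatives. *Fst* stood at 80.7 against 412 CPM (-2.35), so this gene, higher in basal than in suprabasal cells, was higher still in the upper follicle. The chemokine *Cxcl12* stood at 34.8 against 121 CPM (-1.80) and *Krt17* at 1066 against 2177 CPM (-1.03), with -2.55 and -2.26 without the 333 cells. *Krt17* was under 2-fold with the rule applied to thinned cells (-0.54), with the mean of per-cell values (-0.70), with *Krt1*+*Krt10* under 50 (-0.96) and without subcluster 3 (-0.93).

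The *Krt24* follicle cells were few, 96 cells with 237331 UMIs, so that 1 UMI was worth 4.21 CPM, and the counts moved most with the processing. Of 2916 genes, 119 (4.08%) were at least 2-fold higher in basal cells and 296 (10.2%) lower. With mitochondrial and ribosomal protein genes left out of the scaling these were 269 and 395. Follicle genes of the *Krt24* set drew the line between these classes, so the ratios describe the divide and do not test it. Genes of the outer root sheath and bulge were lower in basal cells for 8 of 9. With at least 20 UMIs 10 of 11 were lower, beside 18.0% of all such genes. Some, such as *Cd34* and *Lhx2*, reach the 50 CPM limit only in the *Krt24* follicle class. The levels were 26.6 against 497 CPM for *Cd34* (-4.22) and 75.9 against 1235 CPM for *Postn* (-4.02). For the follicle stem cell factor *Lhx2* they were 22.4 against 362 CPM (-4.02) and for *Sox9* 82.9 against 472 CPM (-2.51). Without subclusters 5, 6, 8 and 9 these were -6.43, -4.94, -6.41 and -3.59. *Dkk3*, of the Dickkopf family, stood at 10.6 against 274 CPM (-4.69) and *Ccn2* at 7.86 against 299 CPM (-5.25), with -5.89 and -6.19 without these cells. The other genes among the 10 lowest were *Gfra1* (-5.59), *Ltbp2* (-5.30), *Il31ra*, the growth factor *Fgf1*, *Tgm5*, *Duox1*, *Serpinb11* and *Pdzrn4* (-5.24 to -4.25 for the last 6). The ratio of *Il31ra* went from -5.24 to -6.60 without subclusters 5, 6, 8 and 9.

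Of 9 hemidesmosome and basement membrane genes, 1 was lower in basal cells and none higher (median -0.37). With at least 20 UMIs 4 of 18 were lower and none higher, beside 18.0% and 7.84% of all such genes, and of 12 focal adhesion genes past the filter 2 were lower and none higher. *Krt15* stood at 8290 CPM in basal and 12455 CPM in *Krt24* follicle cells (-0.59). Higher in basal cells were *Ifi202b* (2.53), *Serpinb2* at 1704 and 362 CPM (2.23) and *Krt16* (1.91), all of them carried by subcluster 3. Without it *Ifi202b* stood at 35.3 CPM, lower than the 92.7 CPM of the *Krt24* follicle cells (-1.39), *Serpinb2* at 405 CPM (0.16) and *Krt16* at 65.6 CPM (0.26). *Ipo7* (2.87), *Bhlhe40* (2.86), *Ifi27l2a*, *Cdk6*, *Desi2* and *Plk2* (2.47 to 1.97 for the last 4) and *Hbb-bs* made up the rest of the 10 highest. *Gja1* stood at 442 and 131 CPM (1.76), but at 0.90 without the 333 cells. The level of *Flg*, filaggrin, was 405 CPM in the *Krt24* follicle cells and 1.02 CPM in the basal cells, and that of *Lor*, loricrin, 1614 and 31.3 CPM. The median of the suprabasal and barrier genes, -1.28, changed its sign when doublets were removed, so this list gave no stable direction.

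The same rule found 343 of 4699 cells in PG (7.30%, 6.57 to 8.08%), with 876923 UMIs and a median of 2197 UMIs. In PG 0 cells reached the limit on *Krt1*+*Krt10*, so that clause left out nothing there. With *Krt5*+*Krt14* at least 100 per 10000, 22 PG cells and 1577 skin cells were left. Whether the rule marks the same layer in both tissues was not tested. Of 3006 genes, 481 (16.0%) were at least 2-fold higher in skin and 578 (19.2%) lower, more than against either follicle class at the same 50 CPM limit. Over genes with at least 20 UMIs the share lower was 16.3% against PG and 18.0% against *Krt24* follicle cells. *Krt15* stood at 8290 CPM in skin and 1201 CPM in PG (2.79, 2.70 to 2.88), and after thinning 89.4% and 50.4% of cells held its UMIs. *Col17a1* stood at 1647 and 196 CPM (3.07, 2.85 to 3.30), *Itga6* at 402 and 148 CPM (1.44) and *Lamb3* at 170 and 45.6 CPM (1.90). Other genes named above for the basal cells of skin were at like levels. *Trp63* stood at 249 and 269 CPM (-0.11, -0.31 to 0.09), *Col7a1* at 59.9 and 54.7 CPM (0.13, -0.30 to 0.59), *Dlk2* at 32.2 and 35.4 CPM (-0.14, -0.68 to 0.46) and *Jag2* at 127 and 105 CPM (0.28, -0.04 to 0.60). The last ratio was 2.81 with *Krt5*+*Krt14* at least 100, where 22 PG cells with 1 UMI of *Jag2* were left. Over the hemidesmosome and basement membrane list 6 of 11 genes were higher in skin and 1 lower, with a median of 0.64 beside -0.07 for all genes compared. With at least 20 UMIs 6 of 18 were higher and 3 lower, beside 16.6% and 16.3% of all such genes. The median ran from -0.46 to 0.85 over the alternatives, the lowest with *Krt5*+*Krt14* at least 100 per 10000. There, genes at 0 in the 22 PG cells left were set to 3 UMIs of 52731. No direction is therefore read from this list.

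Regulators and signals of epidermis differed in both directions, except for the cytokine genes. Among genes past the filter, 5 of 15 basal factors were higher in skin and 1 lower, and 4 of 7 factors of differentiation higher and 3 lower. For Wnt genes 3 of 8 were higher and 2 lower, and for cytokine genes 3 of 7 higher and none lower, beside 16.0% and 19.2% of all genes. With at least 20 UMIs, 12 of 21 Wnt genes were higher and 4 lower, and 10 of 17 cytokine genes higher and none lower. Basal factors gave 6 and 1 of 16 and factors of differentiation 5 and 4 of 11, beside 16.6% and 16.3% of all such genes. *Gata3* stood at 298 CPM in skin and 36.5 CPM in PG (3.03), *Klf4* at 408 and 46.8 CPM (3.13). *Ccnd1* stood at 192 CPM in skin and had 1 UMI in PG (7.40, 4.92 to 12.70). Its ratio was 3.97 with no detected gene of any set, and the lowest over all alternatives was 1.72. With *Krt5*+*Krt14* at least 100 it had 0 UMIs in the 22 PG cells left. *Wnt4* stood at 226 and 39.9 CPM (2.50). For genes at 0 UMIs in PG the ratio was set against 3 UMIs over that group (3.42 CPM). On that basis the log2 ratio was at least 8.96 for *Serpinb2* (at least 6.89 without subcluster 3), at least 5.30 for the water and glycerol channel *Aqp3* (at least 4.51), at least 5.13 for *Il33* and at least 4.29 for *Wnt3*. With *Krt5*+*Krt14* at least 100 these genes were also at 0 in the 22 PG cells left, where 3 UMIs of 52731 allow only at least 0.86 for *Aqp3*, 1.11 for *Il33* and 0.43 for *Wnt3*. Others of the 10 highest were *Fosl1*, *Tnnc2*, *Oas1f*, *Ptgs2* and *Pmp22*, with 1 UMI each in PG, *Cfap57* with 2, and *Capns2* with 0, at 82.5 to 380 CPM in skin. *Ccl27a* stood at 905 and 78.7 CPM (3.52).

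Early response and stress genes were higher in skin for 15 of 16, at 15014 against 3726 CPM summed, with *Fos* at 1280 and 52.5 CPM (4.61) and *Jun* at 2091 and 307 CPM (2.77). Without subclusters 2 and 3 these ratios were 3.32 and 1.28, and the median of the list went from 2.22 to 1.12. Digestion and handling moved with tissue here, and their part in the other differences was not tested.

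Lower in skin were *Lcn2*, the antimicrobial protein lipocalin 2, at 1.75 against 2772 CPM (-10.63), *Igfbp2* at 0.582 against 953 CPM (-10.68), *Krt8*, a keratin of simple epithelia, at 1.02 against 149 CPM (-7.20) and *Krt17* at 1066 against 3786 CPM (-1.83). Without the 333 cells the ratios of *Lcn2* and *Krt17* were -11.72 and -3.06, and those of *Igfbp2* and *Krt8*, with 1 UMI each left in skin, -12.50 and -9.83. *Cck*, *AA467197*, *Car2*, *Slpi*, *Adig*, *Adh1* and *Mia* were also among the 10 lowest, with 9 or fewer UMIs each in skin and 54.7 to 1067 CPM in PG. Genes of the infundibulum past the filter were lower in skin for 5 of 8 and higher for 1. With at least 20 UMIs 6 of 11 were lower and 3 higher. The lower genes were led by *Cst6* at 179 against 18408 CPM (-6.69) and *Defb6* at 41 against 2635 CPM (-6.01). These ratios were -7.73 and -6.96 without the 559 cells and -4.78 and -3.76 with the rule applied to thinned cells. With no detected gene of any set they were -4.58 and -5.24, and over all alternatives they ran down to -15.07 and -12.27. The sebocyte genes past the filter, most of which reach it through PG alone, were lower for 5 of 5 and those with at least 20 UMIs for 6 of 7, at 134 against 1723 CPM summed, with *Awat2*, a wax ester synthase, at 0.582 against 461 CPM. The contractile genes *Tagln* (10.04 and 233 CPM) and *Acta2* (16.9 and 112 CPM), the actin cross-linker *Actn1* (-2.30, and -3.29 without the 333 cells) and the myosin *Myh9* (-1.37) were also lower in skin. The muscle and focal adhesion lists differed in both directions, with 5 of 8 muscle genes with at least 20 UMIs higher in skin and 2 lower (median 2.36), and 2 of 10 focal adhesion genes past the filter higher and 3 lower. Fibroblast genes were higher in skin for 4 of 5, at 601 against 199.6 CPM summed (*Sparc* the most abundant), but summed to 146 CPM without the 333 cells. Inner root sheath and hair shaft genes were higher in skin for 8 of 8 with at least 20 UMIs, at 435 against 41.05 CPM, of which *Gata3*, also listed for basal cells, made up 298 CPM. Markers of sebocytes and the inner root sheath thus moved with tissue, as did most, but not all, infundibulum genes. The part of these markers in the differences of other genes was not tested. The basal cells of skin enter all 4 comparisons, so the lists of genes that differ are not independent of each other.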

How the data were processed

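For each of the 2 libraries the authors deposited counts of UMIs per gene and barcode, without normalization, for every barcode of the barcode list. Per the labels, reads from a Chromium 3′ v3.1 kit were counted with Cell Ranger on mm10. The annotation release is not given in the sources used here. Cells were kept and assigned as stated in the opening, and doublets were removed in an alternative only. CPM are the summed UMIs of a class over all its UMIs, for each library by itself. Intervals (95%) are exact, Poisson for levels, Clopper-Pearson for shares and, for ratios, Clopper-Pearson on the split of a gene's UMIs between the classes. A class at 0 was set to 3 UMIs. Genes were compared with at least 50 CPM in either class and 20 UMIs in both together, and rule genes were not counted. Subclusters used 2000 variable genes, 20 principal components, 15 neighbours and Leiden resolution 0.5, without rule genes.

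Python 3.11.15, numpy 2.4.6, scipy 1.17.1, pandas 2.3.3, scikit-learn 1.9.0, leidenalg 0.10.2 and matplotlib 3.10.9 were used. Named genes were, from each list, the most abundant and those with the highest and lowest ratios, all markers, and the 10 highest and 10 lowest genes of each comparison with UMIs in at least 10% of either class. Subcluster genes and genes along the keratin ranges were chosen after their values were seen. The members and the gene lists were chosen with earlier results of these data known. Some genes are not reported here. On simulated data with known ratios, 94.7 to 95.1% of the intervals held the true value. The simulated sums were Poisson counts, as the intervals assume, so they check the computation and hold nothing of the spread among cells. Against *Krt24* follicle cells 1.74% of unchanged and 94.9% of changed genes were counted. In the other comparisons 0% of unchanged genes were counted.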

Additional observations from a re-analysis of the deposited data

How the results depend on the processing

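No paired analysis was possible because each group is 1 library, and no replicate could be left out for the same reason. Under 18 alternatives, 5 of them (leaving out the 333 cells, the 559 cells, subcluster 3 or subclusters 2 and 3, and free RNA estimated from muscle genes) chosen after seeing the data, 119 of 129 values past 2-fold kept their sign and 105 stayed past 2-fold. Free RNA estimated from muscle genes gave no value for PG, where the estimate reached its limit of 95%.

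The share of basal cells, 27.5%, became 25.6% with at least 200 genes and 500 UMIs, 29.1% with at most 5% mitochondrial UMIs, 18.3% with no detected gene of any set, 32.7% with cells thinned to 1000 UMIs before the rule, 17.7% with *Krt5*+*Krt14* at least 100, 26.1% with *Krt1*+*Krt10* under 50, 23.8% without the 333 cells, 21.2% without the 559 cells, 23.8% without subcluster 3 and 19.2% without subclusters 2 and 3. With a limit of 10 CPM in place of 50 the genes at least 2-fold higher and lower were 959 and 778 against suprabasal, 213 and 331 against upper follicle, 732 and 1152 against *Krt24* follicle and 1313 and 1582 against PG cells. Without mitochondrial and ribosomal protein genes, 406 genes were higher than in suprabasal, 74 higher and 117 lower than in upper follicle and 269 higher than in *Krt24* follicle cells. Against upper follicle cells thinning gave 93 and 123, and *Krt5*+*Krt14* at least 100 gave 49 lower. Against *Krt24* follicle cells the pairs were 284 and 564 with doublets removed, 237 and 545 with no detected gene of any set and 308 and 520 with thinning. The higher genes alone were 215 with the mean of per-cell values and 228 with free RNA removed at the share of fibroblast, immune and endothelial genes. Against PG, *Krt5*+*Krt14* at least 100, which left 22 PG cells, gave 1016 lower genes.

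Signs changed for 10 values past 2-fold, and values under 2-fold, such as the medians of several lists against PG, changed sign more readily. The median of suprabasal and barrier genes against *Krt24* follicle cells, -1.28, became 0.07 with doublets removed, 0.57 with no detected gene of any set and 0.52 with *Krt1*+*Krt10* under 50, and the cause was not tested. Without subcluster 3, the ratios to upper follicle cells became -0.19 for *Serpinb2* and -1.97 for *Ifi202b*, and to *Krt24* follicle cells -1.39 for *Ifi202b*. Without subclusters 2 and 3 those to upper follicle cells became -0.32 for *Epgn*, -0.54 for *Serpinb2*, -2.20 for *Ifi202b* and -0.46 for *Krt16*, and those to *Krt24* follicle cells -0.19 for *Serpinb2*, -1.62 for *Ifi202b* and -0.23 for *Krt16*. With *Krt5*+*Krt14* at least 100 the median of *Skint* genes against PG, 1.43, became -1.47 and *Sox6*, at least 3.82, became at least -0.15. Neither shows a turn in direction, since *Sox6* and all *Skint* genes but *Skint3* were at 0 UMIs in the 22 PG cells, so these values are set by 3 UMIs over 52731, as are the bounds of *Aqp3* and *Wnt3*, which fall under 2-fold there. Depth limits the *Krt24* follicle class most, where 3 UMIs are 12.6 CPM.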
